A study of Mus musculus with 12 samples.

Results

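The 41 genes described here drive or restrain cell division: 10 genes of DNA replication and nucleotide supply in S phase, 22 genes of mitosis, 5 cyclins of G1 and S phase, the transcription factors Foxm1 and E2f1, and the inhibitors Cdkn1a and Cdkn1b. They were picked by name from knowledge of the cell cycle, with earlier results of these data known. Each was read from a probe that the platform's gene table assigns to that symbol, and where a gene had several, from the probe with the highest mean over all arrays. Of the 41 genes, 39 had a probe, among 19057 genes with a probe in all. Mki67, a widely used marker of cycling cells, and Ccnb1, the main mitotic cyclin, had none listed and were not analysed here. Total RNA came from 2 pieces of the mouse embryonic heart, the atrioventricular canal (AVC), from which the valves form, and the primary ventricle (labelled LV), each dissected from embryos of day 9 (E9) or day 10 (E10), and was hybridised to Illumina Mouse WG-6 v2 bead arrays. Each tissue at each age gave 3 arrays, so that 4 groups made up 12 arrays. The labels give no strain, allele or treatment for any group, and the dissected pieces were whole tissue with myocardium, endocardium and blood in them. The labels number the replicates but name no litters or pools, so a p-value here weighs a difference against array-to-array spread that may be purely technical.

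A dividing cell passes from G1 through S phase, in which the DNA is copied, into mitosis, in which it is shared out. D and E cyclins activate the kinases that start S phase, the E2F factors switch on replication genes, and later in the cycle the DREAM and MuvB complexes with B-Myb and Foxm1 control the mitotic genes through 2 short promoter elements, the cell cycle genes homology region (CHR, TTTGAA) and the CCAAT box (CCAAT). Inhibitors such as Cdkn1a and Cdkn1b bind the cyclin kinases and hold cells back. In the embryonic heart, chamber myocardium is known to divide faster than the myocardium of the AVC.

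Promoters of mitotic and replication genes often held a CCAAT box, while CHR and E2F elements were found at different rates in the 2 lists. Of these promoters 5 are shown because they belong to the mitotic genes Aurka, Plk1, Cenpa and Cdc20 and the replication gene Mcm5 described next. RefSeq promoter windows on build GRCm38.p6 were matched for 33 of the 41 genes, each 300 bases, from 250 bases before the annotated start to 50 bases after it. Capitals mark the elements, searched on both strands: CHR, the CCAAT box (ATTGG when read on the opposite strand) and the E2F element (TTCCCGC with its variants TTCGCGC and also TTGCCGC and also TTGGCGC). On the opposite strand the last of these reads GCGCCAA, which can share bases with a CCAAT box.
Aurka, chr2:172370521-172370820, minus strand: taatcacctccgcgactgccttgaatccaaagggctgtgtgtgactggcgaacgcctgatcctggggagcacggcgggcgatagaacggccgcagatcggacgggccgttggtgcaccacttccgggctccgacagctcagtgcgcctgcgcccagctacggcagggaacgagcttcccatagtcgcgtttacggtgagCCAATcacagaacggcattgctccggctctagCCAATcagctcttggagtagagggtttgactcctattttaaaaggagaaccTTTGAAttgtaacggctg
Plk1, chr7:122159185-122159484, plus strand: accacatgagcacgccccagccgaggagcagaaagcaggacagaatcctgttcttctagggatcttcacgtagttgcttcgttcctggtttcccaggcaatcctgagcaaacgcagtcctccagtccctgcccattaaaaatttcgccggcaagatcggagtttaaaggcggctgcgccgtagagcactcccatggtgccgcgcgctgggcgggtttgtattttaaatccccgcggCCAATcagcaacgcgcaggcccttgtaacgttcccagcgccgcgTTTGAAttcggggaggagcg
Cenpa, chr5:30666636-30666935, plus strand: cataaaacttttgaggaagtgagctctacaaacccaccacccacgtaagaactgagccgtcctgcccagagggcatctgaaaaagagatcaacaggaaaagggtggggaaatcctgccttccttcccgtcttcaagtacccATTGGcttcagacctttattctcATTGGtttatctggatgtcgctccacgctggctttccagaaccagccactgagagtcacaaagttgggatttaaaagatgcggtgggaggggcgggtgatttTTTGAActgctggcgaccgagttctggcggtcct
Cdc20, chr4:118437294-118437593, minus strand: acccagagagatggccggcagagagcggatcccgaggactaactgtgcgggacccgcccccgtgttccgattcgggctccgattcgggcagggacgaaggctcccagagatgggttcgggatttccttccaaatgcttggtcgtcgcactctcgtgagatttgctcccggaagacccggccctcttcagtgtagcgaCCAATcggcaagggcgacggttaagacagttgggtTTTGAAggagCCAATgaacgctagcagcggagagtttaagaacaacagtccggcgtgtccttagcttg
Mcm5, chr8:75109259-75109558, plus strand: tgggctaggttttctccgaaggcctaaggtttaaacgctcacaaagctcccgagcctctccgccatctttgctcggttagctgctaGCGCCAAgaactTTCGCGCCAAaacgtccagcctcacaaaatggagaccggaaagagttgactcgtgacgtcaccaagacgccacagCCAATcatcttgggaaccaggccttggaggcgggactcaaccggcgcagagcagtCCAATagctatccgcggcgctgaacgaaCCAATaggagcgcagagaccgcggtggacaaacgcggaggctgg
In Aurka the CHR lay 35 bases after the start with CCAAT boxes 49 and 17 bases before it, and in Plk1 the CHR lay at 33 with a CCAAT box 12 bases before the start. A CHR was found in 12 of 19 mitotic promoters, Mki67 and Ccnb1 included in the 19, against 18.1% of all 27025 promoters of that length. The same 12 also held a CCAAT box, against 7.12% of all promoters with both elements. The CCAAT box alone was common to both lists, in 15 of the 19 mitotic and 8 of 9 replication promoters, against 37.9% of all promoters. Of the 9 replication promoters, 1 held a CHR and 6 an E2F element, which 9.69% of all promoters held and 2 of the 19 mitotic promoters. The windows of Ccnd3, Ccne1, E2f1 and Cdkn1a held none of these letters. Nor did those of the mitotic genes Mad2l1, Birc5, Nusap1 and Melk and the replication gene Tyms. These matches describe the letters and are not shown to be used in these tissues.

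Of the 39 genes measured, 35 were above background on all 12 arrays and 4 were above it on none. A value was taken as above background where it exceeded the size of the array's most negative value, which was 22.4 to 29.6 intensity units. The 4 genes never above it were the mitotic cyclin Ccnb2 (-17.7 to -5.06), the spindle checkpoint kinase Bub1 (-15.5 to 10.2), the kinetochore motor Cenpe (-16.9 to 8.63) and the inhibitor Cdkn1b. Cdkn1b read -0.65, 6.07 and 0.326 in AVC E9, 9.64, 0.949 and -7.1 in LV E9, 2.27, 13.8 and 8.35 in AVC E10, and 6.6, 14.0 and 16.3 in LV E10. No fold change is given for these 4 genes, which were tested but have only an upper bound.

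Marker genes followed the tissue labels, and 1 array stood furthest apart. Of 6 AVC markers, 5 were called higher in the AVC at E9 and 6 at E10, and 2 of 7 chamber markers were called lower in the AVC at each age. The array LV E10 replicate 1 correlated with its own group at a mean r of 0.933 over the genes above background on every array. The other 11 arrays gave 0.957 or more with theirs, and LV E10 replicates 2 and 3 gave 0.988 with each other. The array closest to LV E10 replicate 1 was LV E9 replicate 2 (r = 0.969). AVC E9 replicate 2 and AVC E10 replicate 1 were also closest to each other, across the ages (r = 0.979). Their mean r with their own groups was 0.967 and 0.971. Results that rest on LV E10 replicate 1 are given with and without it. It was the highest of the 3 LV E10 arrays for 29 of the 35 cell cycle genes, which holds for 46.1% of all 8340 genes above background on every array. It was also the highest LV E10 array for the erythroid list (mean log2 deviation 0.83, against 0 and -0.64) and the lowest for the epicardial list (0.56, against 1.75 and 2.02). Its chamber list was lower (0.24, against 0.85 and 0.87), its AVC list higher (-1.26, against -2.04 and -1.89) and its summed intensity of 6 stress and immediate early genes higher (8947, against 1772 and 3647). The part of these in its cell cycle values was not tested.

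**Figure D1:**
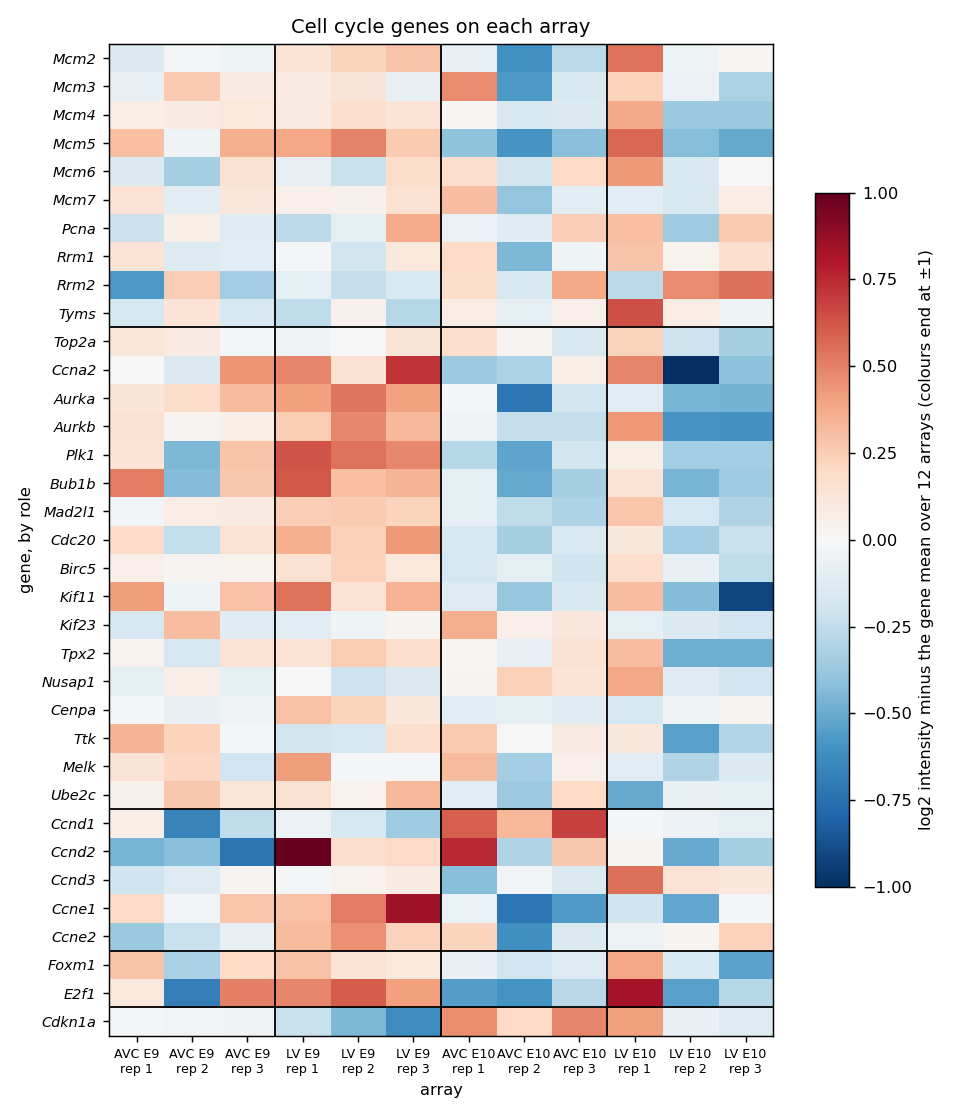
Log2 intensity of the 35 cell cycle genes above background on all 12 arrays, each minus the gene's own mean over the arrays, with genes in rows by role and arrays in columns by group (3 replicates each). Mitotic genes are mostly red in the LV E9 columns and blue in LV E10 replicates 2 and 3, while LV E10 replicate 1 is the highest of its group for 29 of the 35 genes.

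Calls among these genes were made between the ages and not between the tissues. Over both tissues 3 mitotic genes were called, and mitotic genes were 20 of the 39 measured. Over both tissues, Aurka, Plk1 and Cenpa fell from E9 to E10, as did the G1 cyclin Ccne1, and the inhibitor Cdkn1a rose. These were 5 of 39 genes called (limma, adjusted p below 0.05 over all 19057 genes), 4 of them lower, where 8.10% of all genes were called, 3.48% lower and 4.62% higher. The share among the cell cycle genes, 12.8%, was not far from that of all genes, so the number of calls by itself sets them little apart. Testing only the 9931 genes above background in a group called 7 cell cycle genes, where 21.1% of those genes were called. Of the 17 mitotic genes above background, 15 had a negative difference, with a median log2 difference of -0.28, against -0.06 over all 8340 genes above background, of which 56.6% were negative. In whole tissue, fewer cells of a type and less RNA per cell cannot be told apart, so a lower signal may reflect either.

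Aurka, the kinase that matures the centrosomes and builds the spindle, read 1567, 1621 and 1778 in AVC E9, 1895, 2067 and 1886 in LV E9, 1414, 864 and 1260 in AVC E10, and 1331, 1034 and 1031 in LV E10. All 6 E10 arrays lay below all 6 E9 arrays. The log2 difference was -0.66 ± 0.12 (SE; adjusted p = 0.0203) over both tissues, from -0.52 ± 0.18 in the AVC (adjusted p = 0.26) and -0.79 ± 0.18 in the LV (adjusted p = 0.0576).

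Plk1, the kinase that triggers mitotic entry and later steps, read 2663, 1776 and 2951 in AVC E9, 3746, 3528 and 3375 in LV E9, 1985, 1676 and 2128 in AVC E10, and 2519, 1911 and 1910 in LV E10. The LV groups did not overlap, while AVC E9 replicate 2 lay inside the AVC E10 range. The log2 difference was -0.54 ± 0.14 over both tissues (adjusted p = 0.0484), -0.33 ± 0.19 in the AVC (adjusted p = 0.598) and -0.76 ± 0.19 in the LV (adjusted p = 0.0814).

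Cenpa, the histone that marks centromeres, read 10408, 10042 and 10328 in AVC E9, 12925, 12304 and 11439 in LV E9, 9822, 9921 and 9688 in AVC E10, and 9353, 10276 and 10730 in LV E10. The LV E9 arrays were the 3 highest, and the difference was small but tight. It was the 1 gene of the 39 called in the LV alone, at -0.27 ± 0.06 (adjusted p = 0.0461), in a comparison that called 2.37% of all genes, 1.37% as higher and 1.0% as lower. Over both tissues it was -0.17 ± 0.04 (adjusted p = 0.0374). A further probe of Cenpa, from another transcript record, gave -0.15 in the LV and -0.08 over both tissues.

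Cdc20, an activator of the anaphase-promoting complex, illustrates the genes that missed the threshold. It read 2938, 2171 and 2849 in AVC E9, 3293, 3035 and 3451 in LV E9, 2307, 2042 and 2316 in AVC E10, and 2778, 2019 and 2211 in LV E10. The LV groups did not overlap, and the difference was -0.49 ± 0.15 in the LV (adjusted p = 0.113) and -0.37 ± 0.10 over both tissues (adjusted p = 0.0658). Its 3 other probes, all above background on every array, gave -0.48, -0.71 and -0.60 over both tissues. The checkpoint kinase Bub1b gave -0.54 ± 0.18 over both tissues (adjusted p = 0.114), and its other probe -0.52. Top2a, the topoisomerase that untangles chromosomes, read 1967, 1909 and 1790 in AVC E9, 1758, 1800 and 1969 in LV E9, 2038, 1836 and 1618 in AVC E10, and 2110, 1562 and 1430 in LV E10. Its groups overlapped in both tissues (-0.09 ± 0.10 over both tissues, adjusted p = 0.643). A further Top2a probe, also above background throughout, gave -0.74 over both tissues and -0.97 in the LV, so the size of its difference depends on the probe.

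**Figure D2:**
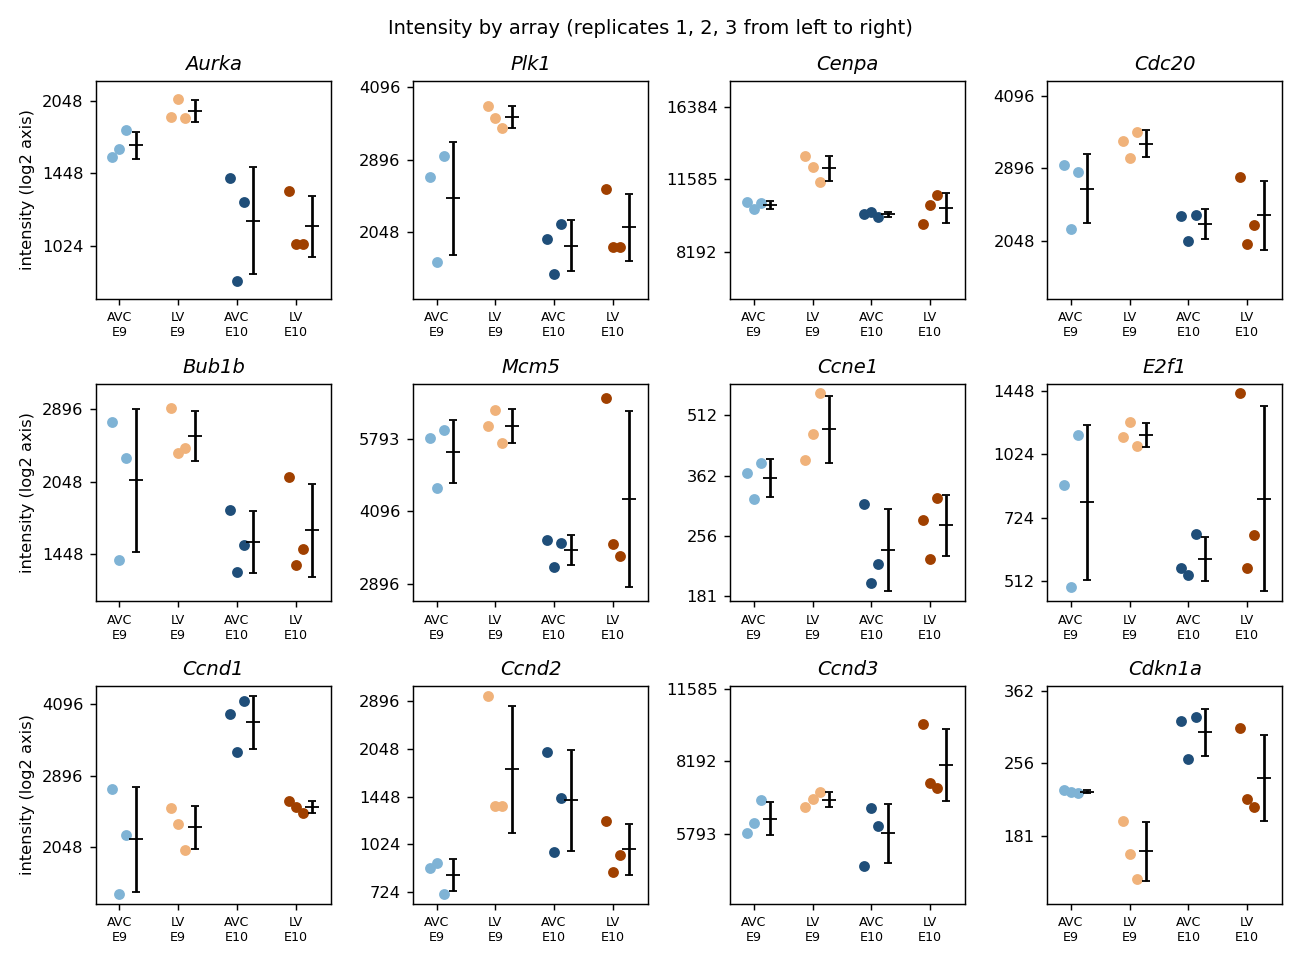
Intensity (log2 axis) of 12 cell cycle genes on each array, with replicates 1, 2 and 3 from left to right in each group; the bar is the mean of log2 values with 1 SD. Aurka is lower on all 6 E10 arrays than on any E9 array, Ccnd2 differs in opposite directions in the AVC and the LV, and LV E10 replicate 1 lies near the E9 arrays for Mcm5 and E2f1.

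The size of the age difference in the LV depended on the array that stood apart. In the LV as measured, 16 of the 17 mitotic genes had a negative difference, with a median of -0.40 against -0.11 over all genes above background. For 16 of the 17, LV E10 replicates 2 and 3 both lay below all 3 LV E9 arrays, which was so for 40.8% of all genes above background. LV E10 replicate 1 lay at or above the lowest LV E9 array for 10 of the 17. Without that array, 12 of the 39 genes were called in the LV, all lower, where 13.8% of all genes were called, 7.23% as lower and 6.58% as higher. They were the mitotic genes Ccna2 (-1.21), Kif11 (-1.02), Aurkb (-0.95), Aurka (-0.92), Plk1 (-0.89), Tpx2 (-0.68), Cdc20 (-0.62), Mad2l1 (-0.48), Birc5 (-0.33) and Cenpa (-0.22) and the replication genes Mcm5 (-0.85) and Mcm4 (-0.50). The 2 further probes of Birc5 gave 0.07 and 0.05 in the LV with all arrays, against -0.21 for the probe used. Over both tissues 15 were called without that array, 14 of them lower, where 18.0% of all genes were called, 8.92% as lower and 9.10% as higher. The median of the mitotic genes became -0.48 in the LV and -0.33 over both tissues. In the other direction, no cell cycle gene was called over both tissues without AVC E9 replicate 3 or without LV E10 replicate 2. Of all genes, 3.41% and 3.27% were then called.

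In the AVC, which does not contain that array, 14 of the 17 mitotic genes had a negative difference, with a median of -0.23 against -0.01 over all genes above background. The AVC groups had ill-fitting arrays too, as AVC E9 replicate 2 and AVC E10 replicate 1 were each closest to the other. None of the 39 was called (limma, 5 at unadjusted p below 0.05), where 0.551% of all genes were. For 6 mitotic genes the AVC E10 arrays lay below all AVC E9 arrays: Aurka, Aurkb, the motor Kif11, the checkpoint gene Mad2l1, Birc5 and Cenpa. Counted over all members, 9 lay lower and 3 higher without overlap, against 8.86% and 14.3% of genes above background. In the LV the same counts were 9 and 2, against 22.5% and 11.6%. Whether the age difference itself differed between the AVC and the LV was tested with an interaction term, which called none of the 39 (3 at unadjusted p below 0.05) and 0.0315% of all genes, 0.0210% positive and 0.0105% negative. As deposited it was positive for all 17 mitotic genes (median 0.25, over all genes 0.10), the LV difference being the more negative. Setting arrays to one 75th percentile shifted the all-gene median by -0.11 and left a mitotic median of 0.14.

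**Figure D3:**
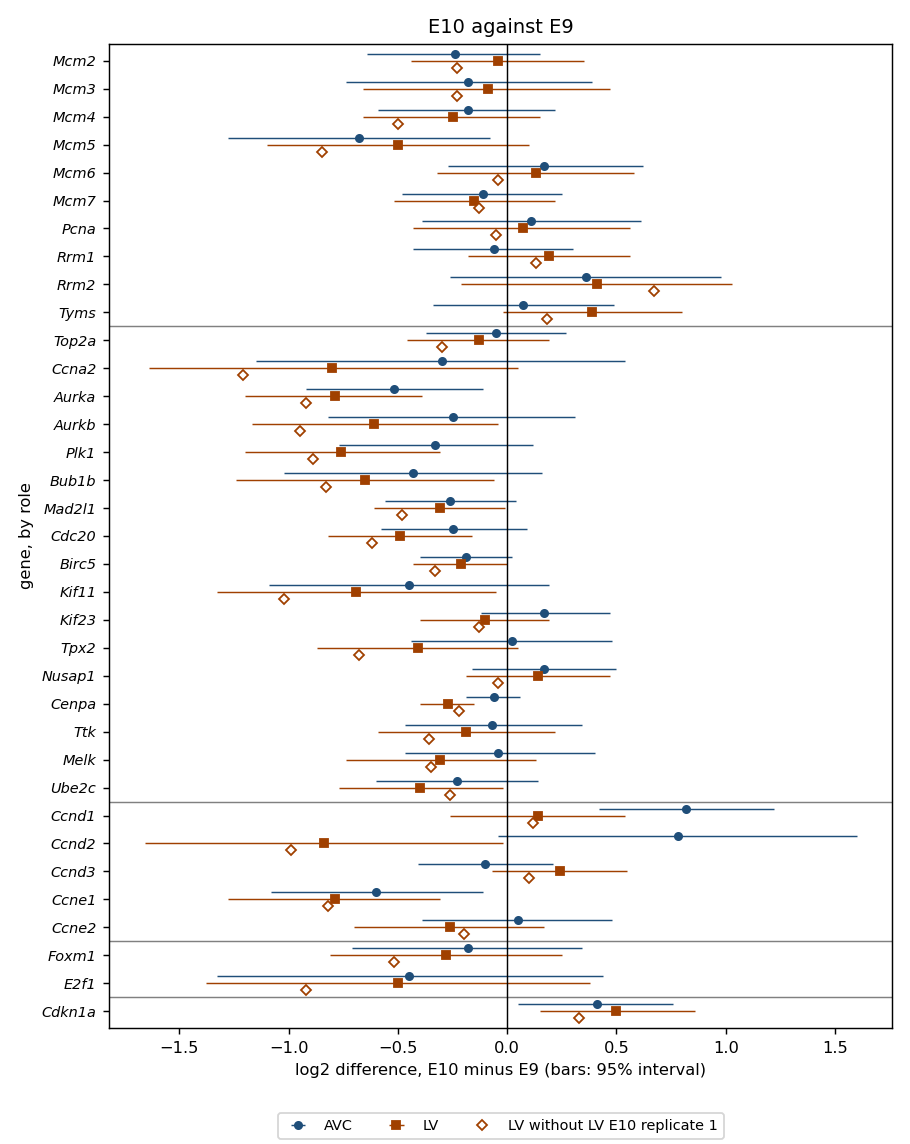
Log2 difference between E10 and E9 (x axis; bars are 95% intervals) for 35 cell cycle genes by role, in the AVC (circles), in the LV (squares) and in the LV without LV E10 replicate 1 (open diamonds, drawn without intervals). Of the 17 mitotic genes, 16 lie left of 0 in the LV and 14 in the AVC, while the 10 replication genes lie on both sides.

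The 10 replication genes showed no common age difference with the probes used. Of the 10, 5 had a positive and 5 a negative difference over both tissues, with a median of -0.03, and none was called. Pcna, the clamp that holds the DNA polymerase, read 850, 1027 and 911 in AVC E9, 826, 922 and 1278 in LV E9, 943, 907 and 1174 in AVC E10, and 1220, 774 and 1183 in LV E10. Its ranges overlapped in every comparison (0.09 ± 0.15 over both tissues, adjusted p = 0.82). Of the 6 subunits of the MCM helicase, Mcm5 had the largest difference. It read 5820, 4579 and 6042 in AVC E9, 6162, 6652 and 5662 in LV E9, 3566, 3136 and 3524 in AVC E10, and 7035, 3510 and 3313 in LV E10. Every E10 array but LV E10 replicate 1 lay below every E9 array, and that 1 array was the highest of the 12. The difference was -0.59 ± 0.19 over both tissues (adjusted p = 0.0937), and -0.76 ± 0.09 without that array (adjusted p = 0.00237). Mcm4 likewise gave -0.22 ± 0.13 (adjusted p = 0.362) and -0.34 ± 0.03 without it (adjusted p = 0.00199). The array left out was the highest of the 12 for both genes, so no weight is put on the p-values without it. The other 4 subunits lay between -0.14 and 0.15 for the probes used. A further Mcm7 probe, above background throughout, gave -0.48, against -0.13 for the probe used. In the wider list of replication and G1 to S genes, 28 of 33 above background were negative and 5 positive over both tissues. Of all genes above background, 56.6% were negative.

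Rrm2 and Rrm1, the subunits of ribonucleotide reductase, cannot be given a direction, because their probes disagreed. For Rrm2, the probe used gave 0.39 ± 0.19 over both tissues (adjusted p = 0.277) and another, also above background throughout, gave -0.30. For Rrm1, the large subunit, they gave 0.06 ± 0.11 (adjusted p = 0.827) and -0.33, so the even split of signs among the replication genes holds for the probes used. Tyms, which makes thymidylate, gave 0.23 ± 0.13 (adjusted p = 0.337), and its other probe 0.24. The 95% intervals over both tissues lay within 1 log2 unit of 0 for 9 of the 10 replication genes and 15 of the 17 mitotic genes.

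The G1 and S cyclins differed among themselves. Ccne1, which starts S phase, fell. It read 368, 316 and 390 in AVC E9, 396, 460 and 580 in LV E9, 308, 196 and 218 in AVC E10, and 281, 225 and 319 in LV E10. The ages did not overlap in either tissue, and the difference was -0.69 ± 0.15 over both (adjusted p = 0.0289). Ccne2, its close relative, read 267, 296 and 326 in AVC E9, 431, 473 and 404 in LV E9, 403, 226 and 312 in AVC E10, and 333, 352 and 406 in LV E10. The ages overlapped in both tissues (-0.11 ± 0.14, adjusted p = 0.704).

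Ccnd1, a D cyclin that links growth signals to the cycle, read 2714, 1634 and 2176 in AVC E9, 2481, 2294 and 2021 in LV E9, 3916, 3254 and 4160 in AVC E10, and 2562, 2487 and 2423 in LV E10. The 3 AVC E10 arrays were above all others. The difference was 0.82 ± 0.17 in the AVC (adjusted p = 0.0865), 0.14 ± 0.17 in the LV (adjusted p = 0.746) and 0.48 ± 0.12 over both tissues (adjusted p = 0.0502), each short of the threshold. Over both tissues it passed under 10 of 22 alternatives, among them quantile normalization (0.53, adjusted p = 0.0242) and the 75th percentile scaling (0.49, adjusted p = 0.0121). Its 2 other probes gave 0.94 and 1.05 in the AVC and 0.20 and 0.78 in the LV.

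Ccnd2 had differences of opposite sign in the 2 tissues. It read 864, 893 and 716 in AVC E9 and 2006, 968 and 1436 in AVC E10, and 3001, 1348 and 1357 in LV E9 and 1213, 840 and 945 in LV E10. Neither pair of groups overlapped. The differences were 0.78 ± 0.36 in the AVC and -0.84 ± 0.36 in the LV, and their difference of 1.62 ± 0.51 did not pass the interaction test (unadjusted p = 0.0122, adjusted p = 0.796 by limma). Ccnd3 read 5830, 6101 and 6806 in AVC E9, 6585, 6832 and 7067 in LV E9, 4969, 6548 and 6029 in AVC E10, and 9809, 7393 and 7213 in LV E10. It was not called with age (0.07 ± 0.10, adjusted p = 0.75).

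Of the 2 transcription factors, neither was called. E2f1, an activator of replication genes, read 863, 496 and 1136 in AVC E9, 1126, 1222 and 1069 in LV E9, 549, 530 and 661 in AVC E10, and 1428, 550 and 659 in LV E10. AVC E9 replicate 2 was low and LV E10 replicate 1 high against their groups, and the difference was -0.47 ± 0.27 over both tissues (adjusted p = 0.36). E2f1 was not called without LV E10 replicate 1 alone. With both of those arrays left out, a choice made after the data were seen, it was -0.85 ± 0.11 (adjusted p = 0.00297). In that fit 23.9% of all genes were called. The arrays left out were the ones lying off for E2f1, so no weight is put on that p-value. Foxm1, an activator of mitotic genes, read 249, 163 and 234 in AVC E9, 250, 225 and 220 in LV E9, 194, 179 and 187 in AVC E10, and 267, 184 and 141 in LV E10. Its difference was -0.23 ± 0.16 (adjusted p = 0.476), and -0.45 ± 0.08 with the same 2 arrays left out (adjusted p = 0.0104), with the same limit. Foxm1 too was not called without LV E10 replicate 1 alone.

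Cdkn1a, the inhibitor that p53 is known to induce, rose. It read 225, 223 and 222 in AVC E9, 194, 166 and 147 in LV E9, 313, 261 and 319 in AVC E10, and 302, 216 and 208 in LV E10. The E10 arrays lay above the E9 arrays in both tissues. The difference was 0.46 ± 0.11 over both tissues (adjusted p = 0.0416), 0.41 ± 0.16 in the AVC and 0.50 ± 0.16 in the LV, and 0.37 without LV E10 replicate 1 (adjusted p = 0.0209). Its other probe gave 0.71 over both tissues.

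Between the AVC and the LV, none of the 39 genes was called by limma at either age or over both. At E9, 5 genes had an unadjusted p below 0.05, and 1.02% of all genes were called, 0.855% as higher in the AVC and 0.168% as lower. At E10 there were 4, with 2.30% of all genes called, 2.06% higher and 0.241% lower. Over both ages there were 7, with 5.47% called, 4.79% higher and 0.682% lower. The median log2 difference of the mitotic genes was -0.19 at E9 and 0.11 at E10, against 0.06 and 0.16 over all genes above background. For replication genes it was -0.06 and -0.08. These levels move with the scaling: the 75th percentile scaling shifted the median of all genes by -0.15 at E9 and -0.26 at E10, and quantile normalization by -0.08 and -0.16. The mitotic median at E10 became -0.15 and -0.08 under them, turning its sign, beside all-gene medians of -0.09 and 0.01. Of all genes, the E9 calls split into 163 higher and 32 lower as deposited and into 96 and 107 under the 75th percentile. At E10 the split went from 392 and 46 to 148 and 135, and over both ages from 912 and 130 to 425 and 523.

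At E9, array by array, more of these genes were lower in the AVC than higher. In 11 of the 35 genes above background all AVC arrays lay below all LV arrays, against 7.96% of all genes, and in 1 they lay above, against 19.0%. The 11 were the mitotic genes Plk1, Cdc20, Cenpa, Aurka, Aurkb, Mad2l1 and Birc5, the cyclins Ccnd2, Ccne1 and Ccne2, and the replication gene Mcm2. The gene above was Cdkn1a. Cenpa had the lowest p (-0.25 ± 0.06, adjusted p = 0.0922; 0.0332 without LV E10 replicate 1, where 2.21% of all genes were called), followed by Ccnd2 (-1.10 ± 0.36, adjusted p = 0.25) and Ccne2 (-0.56 ± 0.19, adjusted p = 0.276). Plk1 gave -0.56 ± 0.19 (adjusted p = 0.285), and under 75th percentile scaling Plk1 (-0.71) and Cdc20 (-0.45) were called lower.

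At E10 the counts without overlap were 2 higher and 2 lower, against 21.1% and 3.41% of genes above background. Higher in the AVC were Ccnd1 (0.59 ± 0.17, adjusted p = 0.147) and the midzone motor Kif23 (0.32 ± 0.13, adjusted p = 0.3). Lower were Ccnd3 (-0.47 ± 0.14, adjusted p = 0.142) and Mcm2, a subunit of the MCM helicase (-0.49 ± 0.17, adjusted p = 0.229). Mcm2 read 1425, 1560 and 1527 in AVC E9, 1735, 1844 and 1920 in LV E9, 1498, 1039 and 1311 in AVC E10, and 2300, 1523 and 1597 in LV E10, so that the AVC was below the LV at both ages. Without LV E10 replicate 1, 3 genes were called higher in the AVC at E10: Tpx2 (0.52), Aurkb (0.43) and Mcm4 (0.27), with 3.83% of all genes called, 2.95% as higher. Over both ages Cenpa (-0.17, adjusted p = 0.0198) was then called lower and Cdkn1a (0.45, adjusted p = 0.0197) higher in the AVC, with 7.12% of all genes called. At E9 and at E10 the 95% interval lay within 1 log2 unit of 0 for 31 and 33 of the 35 genes.

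**Figure D4:**
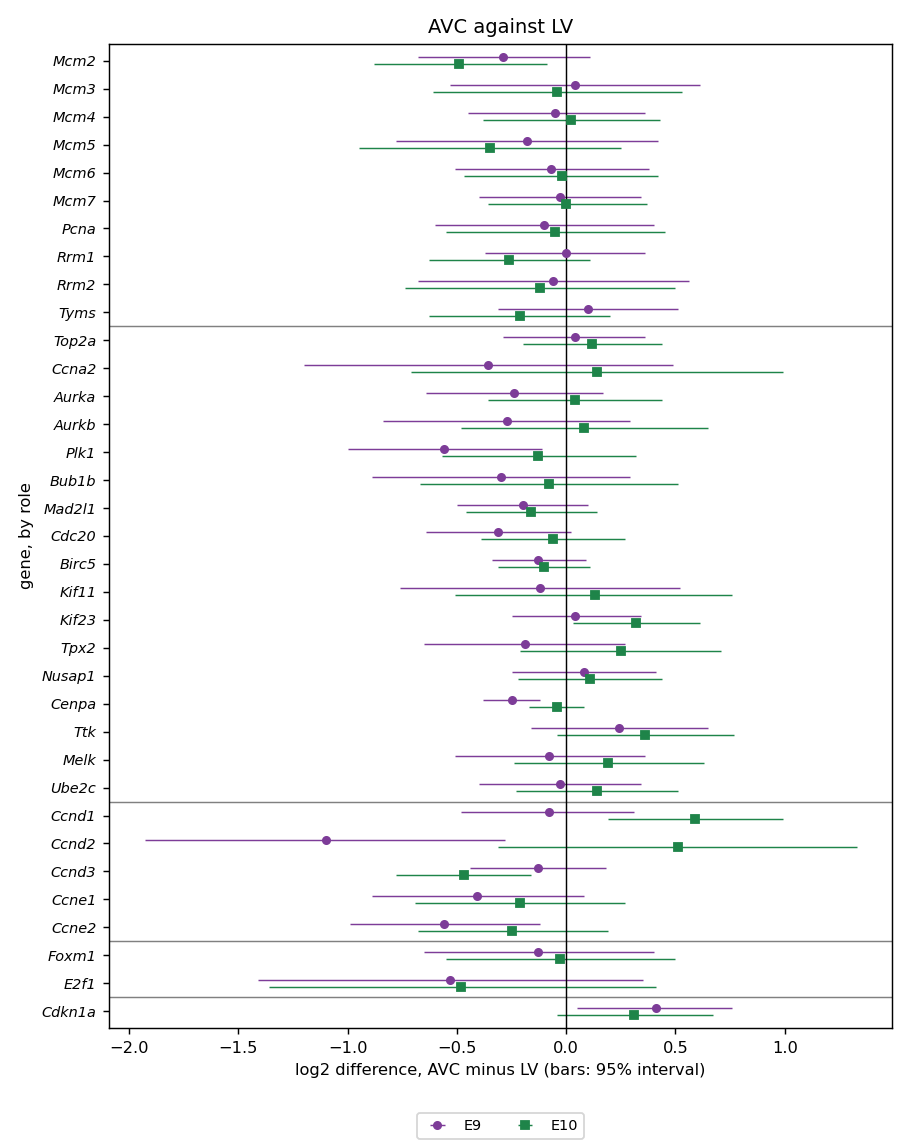
Log2 difference between AVC and LV (x axis; bars are 95% intervals) at E9 (circles) and at E10 (squares) for 35 cell cycle genes by role. At E9, 13 of the 17 mitotic genes lie left of 0, and at E10, 6 do.

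Other genes of the cycle, listed by function, were also called mostly with age. These lists too were made with earlier results of these data known, so they are no independent check. Over both tissues, 8 of 51 other mitotic genes, 3 of 39 other replication genes and 1 of 14 other transcription factors were called lower and 1 of 20 other brakes higher. As shares these were 15.7%, 7.69%, 7.14% and 5.0%, and none of these lists had a call in the other direction. Of all genes 8.10% were called, 3.48% lower and 4.62% higher. Only the mitotic list was above the share for both directions together. Against the share called lower, the replication and transcription factor lists were also above, the latter by 1 gene called. The brakes were near the share called higher. These shares of all genes include many dim genes. Of the 19057, 8340 were above background on every array, against 43 of the 51 other mitotic genes. With dim genes left out of the test, 21.1% of the remaining 9931 were called. The mitotic list's 15.7%, set beside 8.10%, therefore does not by itself set the list apart. The medians over the genes of each list above background were -0.27, -0.20, -0.22 and 0.17. Mybl2, which encodes B-Myb, fell by 1.30 on the log2 scale (adjusted p = 0.00836), and Cdc25c, the phosphatase that activates the mitotic kinase, by 0.49 (adjusted p = 0.0064). Cenpn, a centromere protein, fell by 0.44, Rfc5, a subunit of the clamp loader, by 0.27 and Cdca3 by 0.42. Cdkn3, a phosphatase that acts on cyclin kinases and is itself high in mitosis, rose by 0.63 (adjusted p = 0.0278). In the LV alone, Cdc25c (-0.55), Mybl2 (-1.54) and the microtubule depolymerase Kif2c (-0.40) were called. Between the tissues 1 of these other genes was called, the E2F family member E2f5, higher in the AVC over both ages (0.29, adjusted p = 0.0364). Without LV E10 replicate 1 the other cycle genes called over both tissues numbered 46, 41 of them lower, where the 18.0% of all genes called split almost evenly.

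Markers of other cell types were called with age as well. Of 4 epicardial markers measured, 3 were called higher at E10 over both tissues, and the summed intensity of the 4 was 169 to 676 on the E9 arrays and 2149 to 5732 on the E10 arrays. Of 6 endocardial markers, with Kdr below background on every array, 3 were called higher (summed intensity 2291 to 3485 at E9, 4351 to 6134 at E10). Of 7 erythroid markers, whose cells divide in the embryonic circulation, none was called, and the sum overlapped between the ages at 108331 to 159921 and 106294 to 170224. Of 7 myocardial markers none was called, at 99003 to 106503 and 87857 to 102693. Of 6 endoderm markers none was called with age, with Foxa1, Foxa2 and Epcam below background on every array. Of 6 cushion markers, 1 was called higher. The part of these cell types in the cell cycle values was not tested.

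**Figure D5:**
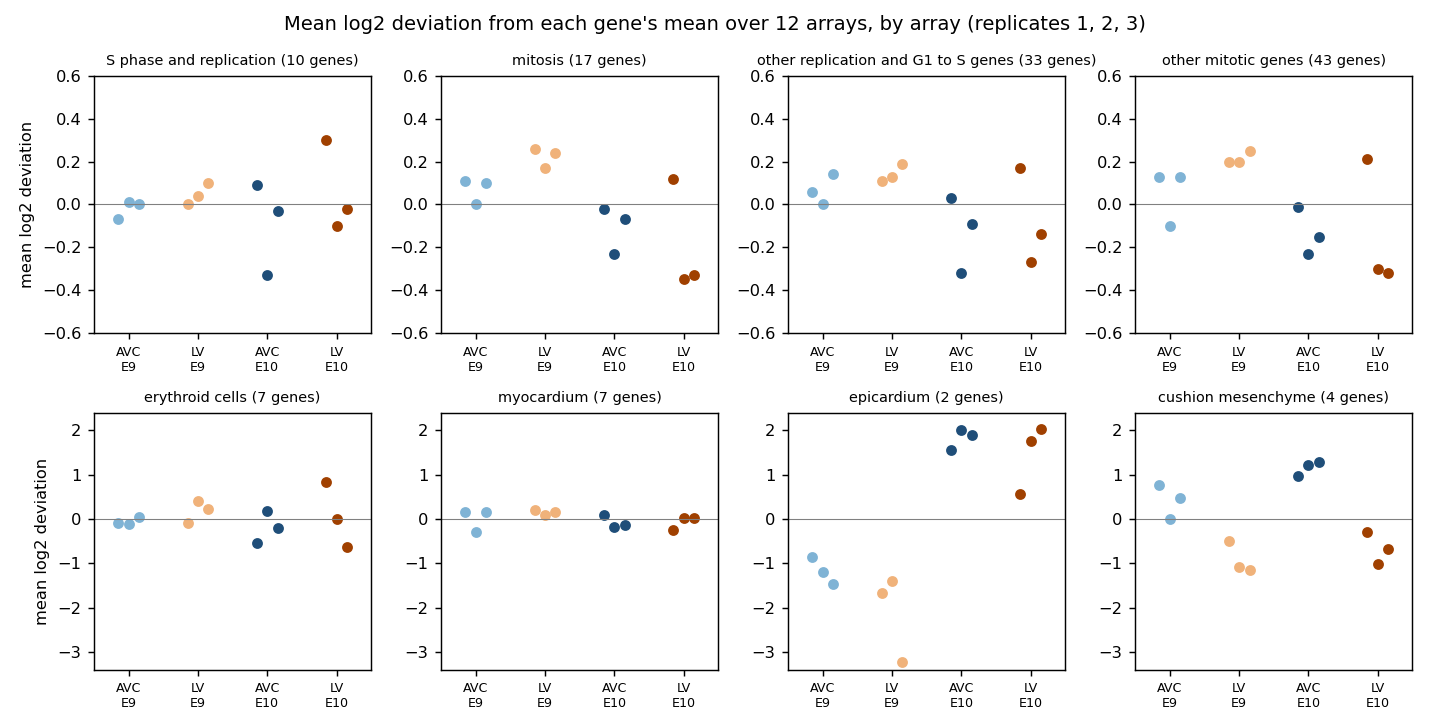
Mean log2 deviation from each gene's mean over the 12 arrays (y axis, scales differ between rows), by array and group, for 4 lists of cell cycle genes and 4 lists of cell type markers above background. The 17 mitotic genes lie at 0.17 to 0.26 on the LV E9 arrays and at -0.35 and -0.33 on LV E10 replicates 2 and 3, with replicate 1 at 0.12, where the erythroid list is at 0.83.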

How the data were processed

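The deposited values are linear bead intensity. The authors hybridised labelled cRNA to Illumina Mouse WG-6 v2 arrays and used GeneSpring GX for their own comparisons; which program made the deposited table is not stated there. Each array had the same mean of 386 over 45281 probes, and 34.7% of values were below 0, as background subtraction and scaling by the authors would leave them. Values under 1 (36.8%) were set to 1 before log2, which leaves fold changes of dim genes uncertain. Of the probes, 34885 had 1 gene symbol, 18 several and 10378 none. The number of arrays limits the precision. Means of 4 groups were fitted together with limma 3.58.1 (R 4.3.3) over all probes, and p-values of 7 contrasts were adjusted by Benjamini-Hochberg over 19057 genes, with a gene called at an adjusted p under 0.05. The fit was tested on simulated data.

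The members and the lists were chosen with earlier results of these data known. Values on every array are given for genes called, the inhibitors, the cyclins, Foxm1, E2f1, Pcna, Top2a and the 3 genes with the lowest p in each contrast, and Cdc20 and Mcm5 were added after their values were seen; of the other cycle genes, those called were named, at most 6 a contrast by lowest p. Alternatives covered normalization, low values, filters, probe choice, the variance model, array weights, a replicate block, the call rule (4-fold and p of 0.01 per the study's methods) and each array left out.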

Additional observations from a re-analysis of the deposited data

How the results depend on the processing

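The calls were near the threshold. Single genes were followed through the alternatives only for the calls and for Ccnd1 and Ccnd2. None of these changed sign, which does not speak for the other members. Role medians near 0 did: 26 of 474 recomputed had the other sign, among them mitosis for AVC against LV at E10 under both scalings. Leaving out each array in turn, the members called over both tissues ranged from 0 to 15, where 2.91% to 18.0% of all genes were called. For age in the LV they ranged from 0 to 12 (0.283% to 13.8%) and in the AVC from 0 to 1 (0.131% to 2.44%). For AVC against LV they ranged from 0 to 1 at E9 (0.310% to 2.21%), 0 to 3 at E10 (0.509% to 3.83%) and 0 to 2 over both ages (2.98% to 7.12%). The highest count of members in each came without LV E10 replicate 1. The 0 over both tissues came without AVC E9 replicate 3 (3.41% of all genes) and without LV E10 replicate 2 (3.27%), and the other arrays left 1 to 7. Beside the same shares of all genes, other cycle genes called ranged from 3 to 46 over both tissues, 0 to 39 in the LV and 0 to 4 over both ages. Aurka kept its call over both tissues under 19 of 22 alternatives, Ccne1 under 15, Cdkn1a under 12, Cenpa under 10 and Plk1 under 9, and Cenpa in the LV under 7 of 23. Ccnd1, not called as reported, was called under 10 of 22.

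Values for age follow in the order AVC, LV, both tissues. With array weights 6, 15 and 20 members were called (10.8%, 21.0% and 27.6% of all genes), with an offset of 50 added 1, 3 and 9 (3.15%, 6.47% and 13.7%), and under 75th percentile scaling 1, 3 and 8 (0.540%, 3.74% and 9.67%). For AVC against LV at E9, at E10 and over both ages, array weights called 1, 3 and 5 (3.34%, 11.2% and 13.7%) and 75th percentile scaling 2, 1 and 5, all lower (1.07%, 1.49% and 4.97%). With a floor of 16, with only the compared groups or with a mean over all probes, 0 were called in the LV (1.65%, 0.394% and 1.79% of all genes), and the last called 1 in the AVC (0.519%), 1 at E10 (1.45%) and 2 over both ages (3.90%). Testing only genes above background called 3 in the LV (9.72%), 7 over both tissues (21.1%) and 1 for AVC against LV over both ages (13.4%). The 4-fold rule called 0 in the LV (1.67%) and over both tissues (1.68%). With LV E10 replicate 1 and AVC E9 replicate 2 both left out, chosen after seeing the data because their array weights were the lowest (0.214 and 0.406), 4, 16 and 19 were called with age (6.51%, 19.2% and 23.9%), 3 at E10 (8.42%) and 2 over both ages (11.4%). The cause was not tested.

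Other cycle genes called over both tissues numbered 13 as reported, where 8.10% of all genes were called. They numbered 27 under 75th percentile scaling (9.67% of all genes), 27 with the offset (13.7%) and 23 above background (21.1%). With mean probes they were 7 (6.33%), with array weights 64 (27.6%), without both arrays 57 (23.9%) and by the 4-fold rule 1 (1.68%). In the LV they numbered 3 as reported (2.37%), 7 under the scaling (3.74%), 10 with the offset (6.47%) and 9 with the filter (9.72%). With weights they were 48 (21.0%), with both arrays left out 50 (19.2%), and 0 with the compared groups (0.394%) or 4-fold (1.67%). For tissue over both ages they numbered 1 as reported (5.47%), 5 under quantile normalization (3.90%), 21 under the scaling (4.97%) and 2 with the offset (7.62%). They were 6 above background (13.4%), 11 with weights (13.7%), 5 without both arrays (11.4%) and 0 with mean probes (3.90%) or 4-fold (1.23%).

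Under 75th percentile scaling the AVC against LV medians at E10 and over both ages were -0.34 and -0.27 for replication, -0.15 and -0.30 for mitosis and -0.46 and -0.50 for the cyclins. Under quantile normalization those at E10 were -0.08 for mitosis and -0.43 for the cyclins. With array weights the replication median in the LV was -0.15, and with mean probes the mitotic median was -0.56. Leaving out each array gave ranges of -0.36 to -0.03 for the cyclins at E10, -0.13 to 0.08 for mitosis over both ages, -0.22 to 0.09 for replication and -0.03 to 0.26 for the cyclins with age in the AVC, and interactions of -0.18 to 0.10 for replication and 0.11 to 0.53 for the cyclins.

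Same-numbered arrays deviated from their group means together at r of -0.37 to 0.52 (median 0.10, 18 pairs). Differently numbered arrays of other groups gave -0.54 to 0.51 (median -0.08, 36 pairs). The ranges overlap widely, so these values cannot decide whether the numbers pair the samples. With the replicate number as a block, 7 members were called over both tissues (9.59% of all genes) and 1 in the LV (4.17%). Of the other cycle genes, 20 were called over both tissues, 10 in the LV and 4 for tissue over both ages (5.43% of all genes). Genes at background have no usable difference.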

Other observations

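Among 29 further probes of 19 members, all above background on every array, 24 had the sign of the probe used for E10 against E9 over both tissues, 23 in the AVC and 21 in the LV. For AVC against LV it was 19 at E9 and 24 at E10. Kif23, a motor of the spindle midzone, was read by 3 such probes, and they disagreed with age. The probe used gave 0.04 over both tissues and another from the same transcript record -0.32. The third, designed from a separate cDNA record, gave 0.75, in the AVC 0.74 and in the LV 0.76. It read 678, 735 and 723 in AVC E9, 680, 689 and 579 in LV E9, 836, 1517 and 1329 in AVC E10, and 996, 1225 and 1093 in LV E10, without overlap between the ages. Which transcript it measures was not tested.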
